A study of Mus musculus with 14 samples.

Results

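The epidermal growth factor (EGF) receptor family and its ligands were followed in mouse ovarian tumour cells as 10 genes, picked by name. They were the 4 receptors Egfr, Erbb2, Erbb3 and Erbb4 and the 6 ligands Areg, Ereg, Hbegf, Tgfa, Btc and Nrg1, and all 10 of them were found among the 35275 genes of the expression table. RNA was sequenced from 5 lines, 14 samples in all. The parental line was KMF, derived from C57Bl6 ID8 ovarian cells that had been passaged in mice. FAK KO was the KMF clone KT13, in which the focal adhesion kinase gene Ptk2 was inactivated by CRISPR (labelled FAK-/-). The other lines were made from KT13 and so carry the same inactivation. FAK-WT re-expressed lentiviral GFP-FAK, FAK-R454 re-expressed GFP-FAK-R454, a form without kinase activity, and β-catenin ΔGSK expressed an active β-catenin. There were 3 samples of each line except FAK-R454, with 2, and every line was grown without attachment as tumorspheres in PromoCell XF medium for 5 days with no further treatment. FAK KO is 1 clone, so the loss of FAK and other differences between that clone and KMF cannot be told apart. The samples of a line are labelled as replicates. The study's methods call the KMF samples independent and those of the other lines replicate RNA samples. The p-values measure the spread between the samples of a line.

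Each of these receptors is a tyrosine kinase that signals as a pair with itself or with another family member. Erbb2 binds no known ligand and acts as a preferred partner, and Erbb3 has a weak kinase and signals through its partners. Areg, Tgfa, Btc, Ereg and Hbegf are made as membrane proteins and are released by sheddases such as Adam17; all of them bind Egfr, and Btc, Ereg and Hbegf also bind Erbb4. Nrg1 binds Erbb3 and Erbb4. In the ovary Areg, Ereg and Btc are best known as the messengers that carry the luteinizing hormone signal through the follicle. FAK is a kinase of integrin adhesions that also receives signals from growth factor receptors, and β-catenin is the transcriptional arm of Wnt signalling.

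Levels are given in FPKM, fragments scaled to gene length and library depth, a scale on which genes of different length can be set side by side. Gene fragments numbered 25390558 in the shallowest sample, 35289859 in the deepest and 28720224 at the median. Mean Ptk2 mRNA was lowest in β-catenin ΔGSK (15.5 FPKM) and FAK KO (19.0), followed by KMF (24.3), FAK-WT (43.4) and FAK-R454 (62.4). These counts cover the whole gene, so they do not check the knockout, but they do show the re-expression. Of 10 epithelial and mesothelial markers, Krt8, Krt18, Krt19, Wt1, Msln and Upk3b averaged above 1 FPKM in all 5 lines, while Krt7, Epcam, Cdh1 and Pax8 did not in any. Immune markers summed to at most 0.0605 FPKM in any sample and erythroid markers to at most 0.202. The endothelial list was above 1 FPKM through Tek in all lines, and also through Pecam1 in FAK KO and FAK-WT.

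Lines were compared in pairs with limma on log2(FPKM + 0.1), over all genes with a mean above 1 FPKM in at least 1 line of the pair. A gene was called where its Benjamini-Hochberg adjusted p was under 0.05. Egfr, Erbb2, Erbb3, Areg, Ereg, Hbegf, Tgfa and Btc were tested in all 6 comparisons, whereas Erbb4 and Nrg1 were under the filter in all 6 and entered only the alternative fits with a lower filter or none. The pseudocount makes the fold changes of low genes smaller. FAK KO samples are shared by 4 of the comparisons.

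Egfr, the receptor that most of these ligands bind, lies on the plus strand of chromosome 11 from 16752203 to 16918158 (mm10). Its levels were 5.43, 5.74 and 5.27 FPKM in KMF and 4.54, 4.16 and 4.45 in FAK KO. FAK-WT samples held 5.11, 4.71 and 4.52 FPKM, and those of FAK-R454 held 4.91 and 4.90. The β-catenin ΔGSK levels were 7.47, 7.07 and 6.87 FPKM, above every sample of the other lines. The KMF samples lay next and did not overlap the rest, while the ranges of FAK-R454, FAK-WT and FAK KO overlapped from one to the next. Egfr rose in β-catenin ΔGSK over FAK KO (log2 fold change 0.69 ± 0.08 SE, limma adjusted p = 0.000153) and was higher in KMF than in FAK KO (0.32 ± 0.08, limma adjusted p = 0.0108). In whole-culture RNA, a smaller number of cells expressing a gene and less of its RNA in each cell cannot be told apart.

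Erbb2, the receptor without a ligand of its own, is also on chromosome 11, from 98412470 to 98437716 on the plus strand. It was the most abundant receptor in every line. Its levels were 22.1, 23.1 and 24.2 FPKM in FAK KO and 25.0 and 25.9 in FAK-R454. FAK-WT samples held 16.9, 16.3 and 16.6 FPKM, KMF samples 19.9, 20.4 and 16.4, and β-catenin ΔGSK samples 8.71, 9.55 and 10.2. Thus FAK-R454 stayed above FAK KO, FAK-WT and KMF overlapped below it, and β-catenin ΔGSK was lowest with no overlap. Over FAK KO, Erbb2 fell by 1.28 ± 0.08 on the log2 scale in β-catenin ΔGSK (limma adjusted p = 3.35e-06) and by 0.48 ± 0.06 in FAK-WT (limma adjusted p = 0.000951). The FAK-R454 difference was 0.14, with a 95% interval (for that gene alone) of -0.02 to 0.30, and was not called. KMF was lower than FAK KO (log2 fold change -0.29 ± 0.09, limma adjusted p = 0.0252), a call lost when each chromosome was centred on its median change (-0.15, adjusted p = 0.225), under median-ratio scaling (adjusted p = 0.0504), or without FAK KO replicate 2 (adjusted p = 0.0541) or 3 (adjusted p = 0.0937). Without KMF replicate 3 it was still called, at -0.20 (adjusted p = 0.0415).

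Egfr and Erbb2 moved in opposite directions in β-catenin ΔGSK over FAK KO. The Erbb2 to Egfr ratio of FPKM was 5.29 ± 0.36 (SD, n = 3) in FAK KO and 5.19 ± 0.14 (SD, n = 2) in FAK-R454. It was 3.47 ± 0.19 (SD, n = 3) in FAK-WT and 3.45 ± 0.29 (SD, n = 3) in KMF. In β-catenin ΔGSK it was 1.34 ± 0.16 (SD, n = 3), with a highest sample of 1.49, below the lowest KMF sample at 3.12. Across the 14 samples Egfr and Erbb2 correlated at a Pearson r of -0.850 on the log2 scale, given as a description since the points share 5 lines.

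Erbb3 varied least of the detected receptors, 1.48-fold between the highest and lowest line means. It is on the minus strand of chromosome 10, from 128567523 to 128589652. Its means were 2.91 ± 0.45 FPKM (SD, n = 3) in β-catenin ΔGSK, 2.34 ± 0.18 (SD, n = 3) in FAK KO, 2.27 ± 0.12 (SD, n = 3) in KMF, 2.03 ± 0.20 (SD, n = 2) in FAK-R454 and 1.97 ± 0.03 (SD, n = 3) in FAK-WT. Only β-catenin ΔGSK stood clear of the next line, and Erbb3 was called in no comparison. Its difference there over FAK KO was 0.29 ± 0.13 on the log2 scale (limma adjusted p = 0.0884). This difference passed the threshold in 4 of 15 alternative analyses, 1 of them leaving out β-catenin ΔGSK replicate 1 (0.38, adjusted p = 0.0379). In FAK-WT over FAK KO, Erbb3 was called only without the variance trend (-0.24, limma adjusted p = 0.0441).

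Erbb4, the other neuregulin receptor, lies on the minus strand of chromosome 1 from 68032186 to 69108059 and was barely detected. The β-catenin ΔGSK samples held 0.0761, 0.0790 and 0.0491 FPKM, from 69 fragments in all and 15 to 28 in a sample. KMF gave 5 fragments over its 3 samples, FAK KO 1, FAK-WT 2 and FAK-R454 8. The β-catenin ΔGSK samples were thus apart from the rest, at a level far below 1 FPKM. With no filter on low values the difference from FAK KO was 0.73 on the log2 scale (limma adjusted p = 0.00446), a size held down by the pseudocount, and no other line was called for Erbb4.

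**Figure D1:**
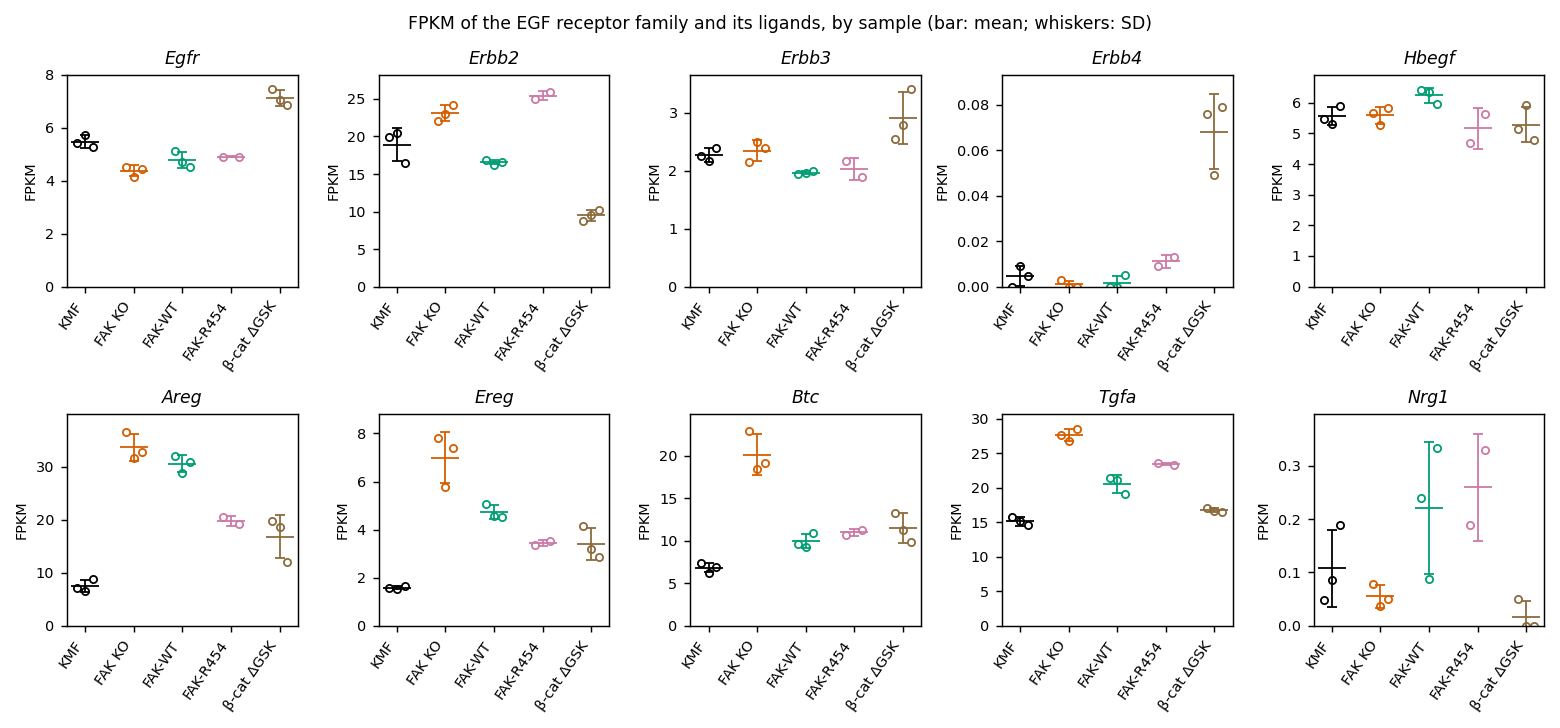
FPKM of the 10 genes in each sample (open circles) of the 5 lines, with the mean (horizontal bar) and SD (whiskers), each panel on its own linear axis from 0. Areg, Ereg, Btc and Tgfa were highest in FAK KO and lowest in KMF, Erbb2 was lowest in β-catenin ΔGSK at 9.50 FPKM, and the Erbb4 and Nrg1 axes end below 1 FPKM.

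To show what lies ahead of these genes, the 250 bases before the annotated start were taken from RefSeq promoter sequences (GRCm38.p6) and matched by symbol for 6 of the 10 genes: Egfr, Erbb2, Erbb4, Areg, Btc and Tgfa. Both strands were searched for 6 motifs: that of AP-1 factors was TGAGTCA, the core of the cAMP response element (CRE) was TGACGT, the TCF/LEF motif was CTTTGAT, the TEAD motif was GGAATG, the E-box was CACGTG and the TATA motif was TATAAA. The Erbb2 window, chr11:98412234-98412483 on the plus strand, held GGAATG once, from position -88 (capitals), letters found in 12.6% of 32851 such windows. Positions count from the start in the promoter set. For Erbb2 that start lies past the gene start listed above (98412470), so the window's last bases overlap the gene as listed. Egfr and Erbb4 held none of the 6.
Erbb2: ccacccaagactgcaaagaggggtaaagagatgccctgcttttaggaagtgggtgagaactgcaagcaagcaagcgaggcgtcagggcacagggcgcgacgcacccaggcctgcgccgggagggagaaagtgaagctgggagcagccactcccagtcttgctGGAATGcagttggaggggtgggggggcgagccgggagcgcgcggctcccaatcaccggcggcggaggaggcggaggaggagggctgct

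Areg (amphiregulin) differed most between lines among the 5 ligands above 1 FPKM, 4.48-fold between the highest and lowest means. It lies on the plus strand of chromosome 5 from 91139615 to 91148432. Its samples held 36.5, 31.6 and 32.7 FPKM in FAK KO and 32.0, 28.9 and 30.9 in FAK-WT. Those of FAK-R454 held 20.5 and 19.2 FPKM, those of β-catenin ΔGSK 19.8, 18.6 and 12.1, and those of KMF 7.09, 6.57 and 8.84. FAK KO and FAK-WT overlapped at the top, FAK-R454 and β-catenin ΔGSK overlapped in the middle, and KMF was apart at the bottom. Over FAK KO, Areg had a log2 fold change of -2.16 ± 0.11 in KMF (limma adjusted p = 2.39e-06), -1.02 ± 0.17 in β-catenin ΔGSK (limma adjusted p = 0.000878) and -0.76 ± 0.08 in FAK-R454 (limma adjusted p = 0.000754). In FAK-WT the difference was -0.14, with a 95% interval of -0.31 to 0.04 (limma adjusted p = 0.175). Ereg (epiregulin) starts at -65.0 kb from the start of Areg on the same strand (91074617 to 91093649) and was less abundant. Its samples held 7.80, 5.78 and 7.41 FPKM in FAK KO, 5.06, 4.57 and 4.54 in FAK-WT and 3.37 and 3.52 in FAK-R454. The β-catenin ΔGSK samples held 4.14, 3.19 and 2.85 FPKM and the KMF samples 1.56, 1.54 and 1.65. The order of the lines was that of Areg, but here FAK-WT did not overlap FAK KO. Ereg fell over FAK KO in FAK-WT by 0.55 ± 0.12 (limma adjusted p = 0.00881), in FAK-R454 by 0.99 ± 0.13 (limma adjusted p = 0.0021), in β-catenin ΔGSK by 1.03 ± 0.16 (limma adjusted p = 0.000669), and its KMF log2 fold change was -2.06 ± 0.12 (limma adjusted p = 4.64e-06).

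Btc (betacellulin) lies 217.6 kb beyond Areg on the minus strand of chromosome 5 (91357261 to 91402994). FAK KO samples held 22.9, 18.4 and 19.2 FPKM and stood above all others. β-catenin ΔGSK samples held 13.3, 11.3 and 9.90 FPKM, FAK-R454 samples 10.7 and 11.3, and FAK-WT samples 9.68, 9.34 and 10.9. These 3 lines overlapped, and KMF was apart below them with 7.39, 6.28 and 6.91 FPKM. Btc was the member with the largest FAK-WT change over FAK KO, a fall of 1.00 ± 0.10 on the log2 scale (limma adjusted p = 0.000279). The other falls were 0.86 ± 0.10 in FAK-R454 (limma adjusted p = 0.00117) and 0.81 ± 0.12 in β-catenin ΔGSK (limma adjusted p = 0.000622), and the KMF log2 fold change was -1.54 ± 0.10 (limma adjusted p = 6.82e-06). Tgfa (transforming growth factor alpha), on the plus strand of chromosome 6 from 86195251 to 86275449, was likewise highest in FAK KO and lowest in KMF. Its samples held 27.6, 26.8 and 28.5 FPKM in FAK KO, 23.6 and 23.3 in FAK-R454 and 21.4, 21.1 and 19.1 in FAK-WT. They held 17.0, 16.7 and 16.5 FPKM in β-catenin ΔGSK and 15.8, 15.1 and 14.5 in KMF. No line overlapped the next. Over FAK KO, Tgfa fell by 0.72 ± 0.06 in β-catenin ΔGSK (limma adjusted p = 2.21e-05) and by 0.43 ± 0.07 in FAK-WT (limma adjusted p = 0.00221), and the KMF log2 fold change was -0.86 ± 0.06 (limma adjusted p = 1.37e-05). The FAK-R454 fall of 0.24 ± 0.06 was called (limma adjusted p = 0.0366) but was lost in 7 of 14 alternatives, among them each fit without FAK KO replicate 3 (adjusted p = 0.156), FAK-R454 replicate 1 (adjusted p = 0.238) or FAK-R454 replicate 2 (adjusted p = 0.239).

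The windows of 3 of these ligands are printed because β-catenin ΔGSK and FAK-R454 had less of all 3 than FAK KO. They lie at chr5:91139349-91139598 on the plus strand (Areg), chr5:91402995-91403244 on the minus strand (Btc) and chr6:86194972-86195221 on the plus strand (Tgfa). In the Areg window the run TGACGTCA (capitals) joins the CRE core TGACGT at position -61 with its reverse complement at -59, and TATAAA stands at -31. Letters of the CRE core were found in 6.47% and TATAAA in 12.4% of all windows. The Btc and Tgfa windows held none of the 6 motifs, and AP-1, TCF/LEF and E-box letters, found in 4.46%, 3.21% and 6.02% of all windows, were in none of the 6 members' windows.
Areg: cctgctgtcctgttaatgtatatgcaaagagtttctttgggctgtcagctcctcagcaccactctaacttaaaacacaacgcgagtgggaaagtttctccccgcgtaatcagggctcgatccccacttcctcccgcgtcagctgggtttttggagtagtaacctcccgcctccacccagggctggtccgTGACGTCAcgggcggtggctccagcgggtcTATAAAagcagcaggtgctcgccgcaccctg
Btc: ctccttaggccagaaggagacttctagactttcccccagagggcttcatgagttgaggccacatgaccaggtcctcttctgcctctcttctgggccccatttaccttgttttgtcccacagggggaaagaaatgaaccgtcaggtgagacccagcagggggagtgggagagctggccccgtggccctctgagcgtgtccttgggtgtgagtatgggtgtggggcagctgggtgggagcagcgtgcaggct
Tgfa: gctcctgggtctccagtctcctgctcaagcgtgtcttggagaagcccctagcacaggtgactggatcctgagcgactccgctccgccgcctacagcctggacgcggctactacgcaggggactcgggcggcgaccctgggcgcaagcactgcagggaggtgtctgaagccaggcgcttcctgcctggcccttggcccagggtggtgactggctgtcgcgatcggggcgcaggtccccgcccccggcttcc

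Hbegf (heparin-binding EGF-like growth factor), on the minus strand of chromosome 18 from 36504929 to 36515805, differed little between lines. Its means were 6.25 ± 0.24 FPKM (SD, n = 3) in FAK-WT, 5.59 ± 0.29 (SD, n = 3) in FAK KO, 5.56 ± 0.30 (SD, n = 3) in KMF, 5.29 ± 0.58 (SD, n = 3) in β-catenin ΔGSK and 5.16 ± 0.67 (SD, n = 2) in FAK-R454. The lines spanned 1.21-fold, only FAK-WT did not overlap its neighbour, and Hbegf was called in no comparison. The 95% interval of its KMF difference from FAK KO was -0.19 to 0.18 on the log2 scale. Chromosome 18 genes as a whole had lower medians than other chromosomes over FAK KO, by -0.34 in KMF, -0.30 in β-catenin ΔGSK and -0.29 in FAK-WT. With each chromosome centred on its own median, Hbegf was higher over FAK KO in FAK-WT (0.53, limma adjusted p = 0.00151), KMF (0.37, limma adjusted p = 0.00365) and β-catenin ΔGSK (0.30, limma adjusted p = 0.0321), and it was called in FAK-WT over FAK-R454 (0.50, limma adjusted p = 0.0418). Median-ratio scaling also gave a call in FAK-WT over FAK KO (0.23, limma adjusted p = 0.0376). Nrg1 (neuregulin 1, minus strand of chromosome 8) was barely detected, with 0 to 22 fragments in a sample. It averaged 0.259 FPKM in FAK-R454, 0.220 in FAK-WT, 0.108 in KMF, 0.0555 in FAK KO and 0.0168 in β-catenin ΔGSK, and neighbouring lines overlapped throughout. With no filter on low values limma called Nrg1 in FAK-R454 over FAK KO alone (1.19, adjusted p = 0.0488). With the filter lowered to 0.1 FPKM it was not called there. Nrg1 passed that filter only through FAK-R454, where it was high, so the filter fixed its direction and no test is given. The table lists Nrg1 from 31818028 to 31918203, 100176 bases of the 1069479 that GENCODE gives this gene, so its longer forms were counted in part at most.

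Summed over the 6 ligands, FAK KO held the most ligand mRNA. The sum was 94.1 ± 6.4 FPKM (SD, n = 3) in FAK KO, 72.3 ± 2.3 (SD, n = 3) in FAK-WT and 63.1 ± 0.16 (SD, n = 2) in FAK-R454. It was 53.8 ± 6.8 (SD, n = 3) in β-catenin ΔGSK and 36.8 ± 1.6 (SD, n = 3) in KMF, and no 2 lines overlapped. The leading ligand also differed between lines. Areg made up 42.3% ± 1.1 (SD, n = 3) of the sum in FAK-WT and 35.7% ± 0.72 (SD, n = 3) in FAK KO, but 20.3% ± 2.5 (SD, n = 3) in KMF, where Tgfa led with 41.3% ± 2.7 (SD, n = 3). In FAK-R454 Tgfa led with 37.1% and Areg followed with 31.4%. In β-catenin ΔGSK the Areg to Tgfa ratio averaged 1.00, from 0.733 to 1.16, and replicate 3, low in Areg, lay apart from the other two. Receptor sums ran from 19.6 ± 0.91 FPKM (SD, n = 3) in β-catenin ΔGSK to 32.4 ± 0.40 (SD, n = 2) in FAK-R454, so ligand to receptor mRNA was 3.16 in FAK KO, 3.10 in FAK-WT, 2.76 in β-catenin ΔGSK, 1.95 in FAK-R454 and 1.39 in KMF.

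**Figure D2:**
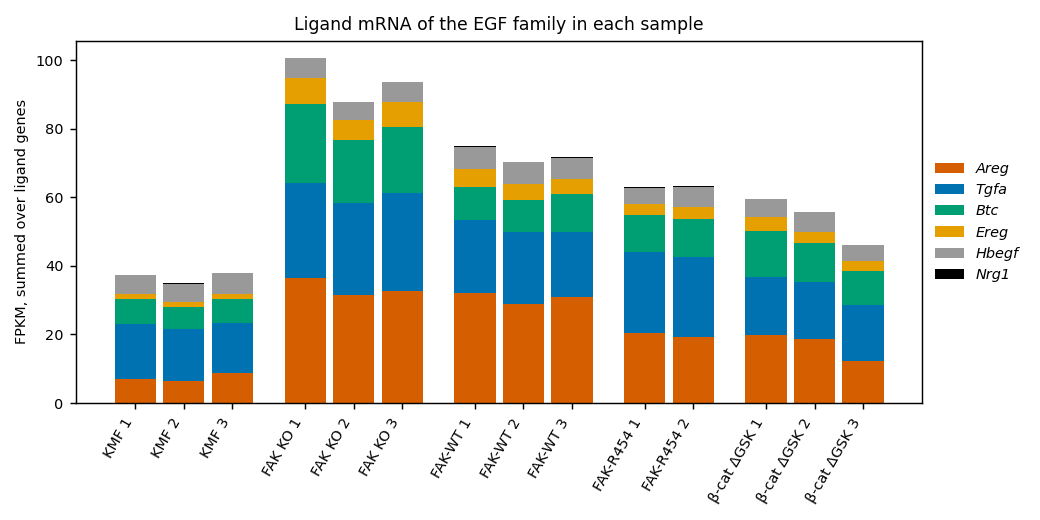
FPKM summed over the 6 ligand genes in each of the 14 samples, as stacked bars from 0 coloured by ligand. The FAK KO bars reach 87.9 to 101 FPKM and the KMF bars 34.9 to 38.0, with Hbegf of similar height in all lines and Areg the segment that shrinks most.

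The fibroblast markers varied between the same lines. The summed FPKM of these 5 genes was lowest in β-catenin ΔGSK (30.8 to 45.1) and KMF (41.8 to 49.8). It was higher in FAK KO (90.0 to 127), FAK-R454 (122 to 132) and FAK-WT (123 to 145). Dcn had the highest level of the 5 in every line, so the sum mainly follows Dcn. In KMF over FAK KO Dcn was lower (log2 fold change -1.57, limma adjusted p = 5.82e-05). Pdgfra (1.55, limma adjusted p = 1.20e-05) and Col1a1 (0.87, limma adjusted p = 0.00481) were higher there. Pdgfra, Dcn and Col1a1 averaged above 1 FPKM in all lines but β-catenin ΔGSK, where only Dcn did, and from none (FAK-WT) to 2 (FAK-R454) of the 5 were at 0 in every sample of a line. The endothelial list summed to 29.6 to 30.0 FPKM in KMF, 17.1 to 19.2 in FAK KO, FAK-WT and FAK-R454 together, and 6.55 to 7.42 in β-catenin ΔGSK. The part of these markers in the ligand and receptor differences was not tested.

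Re-expression of FAK was asked about by comparing FAK-WT with FAK KO. Of the 8 tested members 4 were lower in FAK-WT (Btc, Ereg, Erbb2 and Tgfa) and none higher at an adjusted or an unadjusted p under 0.05, the background being 25.2% lower and 15.6% higher among all 11841 genes tested. The median change was -0.33 over the tested members and -0.08 over all genes. For the kinase-inactive form, FAK-R454 over FAK KO, 4 members were lower (Ereg, Btc, Areg and Tgfa) and none higher, again at either p, against 9.89% of 11818 genes called lower and 9.78% higher, and the medians were -0.22 and -0.03. In β-catenin ΔGSK over FAK KO 5 members fell (Erbb2, Ereg, Areg, Btc and Tgfa) and 1 rose (Egfr), the background being 34.4% lower and 23.7% higher among 11915 genes, with medians of -0.76 and -0.09.

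KMF over FAK KO compared the parental line with the knockout clone. Areg, Ereg, Btc, Tgfa and Erbb2 (5 members) were lower in KMF and 1, Egfr, was higher, against a background of 28.7% lower and 23.1% higher among 11893 genes. The median was -0.58 over the tested members and -0.05 over all genes, and Ereg, Areg and Btc passed a 2-fold change. FAK-WT cells did not have the ligand levels of KMF. FAK-WT was higher than KMF in 4 members and lower in none, against 18.2% of 11847 genes called higher and 23.5% lower. The differences were 2.02 ± 0.11 on the log2 scale for Areg (limma adjusted p = 3.24e-05), 1.52 ± 0.09 for Ereg (limma adjusted p = 3.78e-05), 0.54 ± 0.09 for Btc (limma adjusted p = 0.00286) and 0.43 ± 0.07 for Tgfa (limma adjusted p = 0.00194). Erbb2 differed by -0.18 (95% interval -0.39 to 0.02) and was not called, nor were Egfr (-0.19, -0.37 to -0.02) and Hbegf (0.16, 0.00086 to 0.33), which passed at an unadjusted p of 0.05. Without KMF replicate 3 Erbb2 was called lower in FAK-WT (-0.28, limma adjusted p = 0.00583). Egfr was called in 3 alternatives, with chromosomes centred (-0.29, limma adjusted p = 0.0228), in 1 fit over all samples (adjusted p = 0.0435) and with voom (adjusted p = 0.0436), Hbegf under median-ratio scaling (0.20, adjusted p = 0.0365) and Erbb3 without the variance trend (-0.20, adjusted p = 0.040).

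FAK-WT was also compared with FAK-R454, the form without kinase activity, both made from KT13. With 1 line of each, kinase activity and other differences between the 2 lines cannot be told apart. Ptk2 mRNA differed as well, at 43.4 FPKM in FAK-WT and 62.4 in FAK-R454. Areg was higher in FAK-WT by 0.62 ± 0.06 (limma adjusted p = 0.00717) and Ereg by 0.44 ± 0.08 (limma adjusted p = 0.0356), while Erbb2 was lower (-0.61 ± 0.05, limma adjusted p = 0.00357). These were 2 of 8 tested members higher and 1 lower, with a background of 3.38% higher and 4.44% lower among 11782 genes. The FAK-WT and FAK-R454 samples of all 3 genes did not overlap. The calls rest on the presence of both FAK-R454 samples. A fit without either one leaves 1 sample in that line and called hardly any gene at all. The loss of these 3 calls there is thus not particular to these genes. The differences of Areg then ran from 0.57 to 0.67, those of Ereg from 0.41 to 0.47 and those of Erbb2 from -0.64 to -0.59. Without FAK-WT replicate 3, Btc (-0.21, limma adjusted p = 0.0327), Tgfa (-0.14, limma adjusted p = 0.0456) and Hbegf (0.31, limma adjusted p = 0.0448) were called as well. The calls over all genes rose there too, to 1505 higher and 1807 lower of 11793, from 398 and 523 of 11782. These added calls are thus not read as particular to the 3 genes. Btc (-0.14, 95% interval -0.34 to 0.06) and Egfr (-0.04, -0.23 to 0.16) were not called between the forms with all samples. A replicate block called Btc (-0.21, limma adjusted p = 0.0416) and Hbegf (0.31, limma adjusted p = 0.0349), with 1567 higher and 1826 lower among all 11782 genes. FAK-R454 has no replicate 3, so the block gave the differences found without FAK-WT replicate 3. The part of the block itself cannot be told apart from the loss of that sample.

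**Figure D3:**
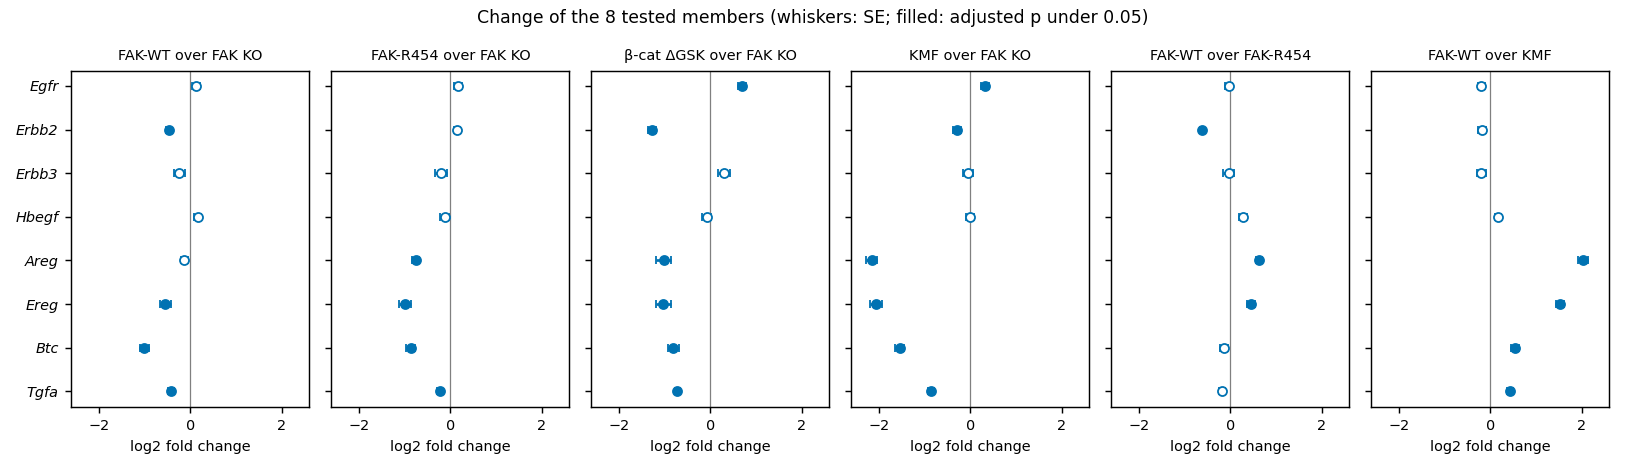
Log2 fold change (horizontal axis, whiskers SE) of the 8 tested members in the 6 comparisons, filled where the adjusted p was under 0.05. The 4 ligands Areg, Ereg, Btc and Tgfa lie left of 0 in the 4 comparisons that share the FAK KO samples, with Areg open in FAK-WT, and right of 0 in FAK-WT over KMF, while Hbegf and Erbb3 are open throughout.

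Areg, Ereg and Btc are neighbours on chromosome 5, and so is Epgn (epigen), another Egfr ligand. The expressed genes within 1 Mb of these 3 members, 16 in each comparison, were therefore listed, a choice made after the values were seen. These were not the same genes throughout: Cxcl5 passed the filter over FAK KO only through the other line, where it was high, and Epgn in β-catenin ΔGSK likewise, so the filter fixed their direction. Gm9958 and Pf4 passed in some comparisons only through the line where they were high as well. In KMF over FAK KO, 11 of the 15 neighbours above 1 FPKM in both lines were lower and 3 higher, with a median of -0.44, where 28.7% of all tested genes were lower and 23.1% higher. The 3 members, at -2.16, -2.06 and -1.54, lay below every neighbour, of which the lowest was Cxcl15 (-1.05). The neutrophil chemokine Cxcl5 averaged 4.22 FPKM in KMF and 0.278 in FAK KO. In β-catenin ΔGSK over FAK KO 9 of 13 were lower and 1 higher (median -0.52, all genes 34.4% and 23.7%). There the neighbours Cxcl1 (-2.67), Parm1 (-2.32) and Cxcl15 (-1.50) lay below these 3 members. Cdkl2 (-1.03 ± 0.16 SE) was level with Ereg (-1.03 ± 0.16). In FAK-WT 7 of 14 were lower and 2 higher (median -0.19; all genes 25.2% and 15.6%), and in FAK-R454 7 of 15 were lower and 1 higher (median -0.23; all genes 9.89% and 9.78%). Parm1 (-1.16) and Cdkl2 (-1.02) lay below the 3 members in FAK-R454, while in FAK-WT Btc lay below Parm1 (-0.94), and Ereg and Areg above both Parm1 and Cdkl2 (-0.74). Chromosome 5 as a whole was shifted in KMF over FAK KO by -0.14 relative to the other chromosomes, and chromosome 6, which holds Tgfa, by -0.31. With chromosomes centred, the KMF differences were -1.98 for Areg, -1.88 for Ereg, -1.36 for Btc and -0.53 for Tgfa, all still called. The chromosome 5 shift was larger in β-catenin ΔGSK, at -0.24, and centring moved the Btc difference there from -0.81 to -0.49 (limma adjusted p = 0.00838). Centring also moved Tgfa in FAK-WT from -0.43 to -0.26 over FAK KO (limma adjusted p = 0.0179) and from 0.43 to 0.28 over KMF (limma adjusted p = 0.0162). Whether the region differs in copy number between these lines was not tested.

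**Figure D4:**
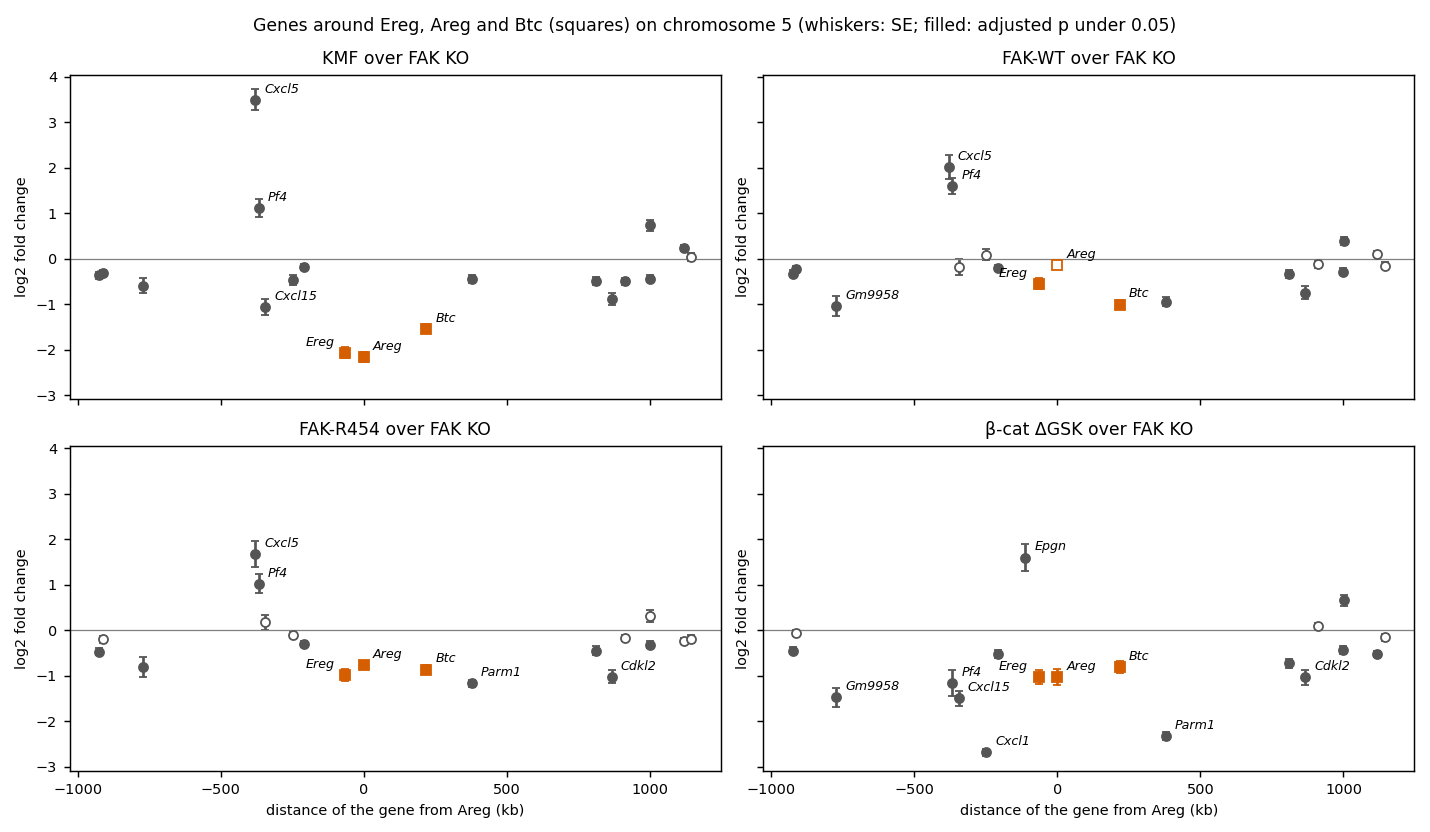
Log2 fold change over FAK KO (vertical axis, whiskers SE) of the tested genes around Areg against their distance from it in kb, for the 4 other lines. Squares are Ereg, Areg and Btc, circles their neighbours, and filled symbols were called. In KMF the squares lie below all circles, in β-catenin ΔGSK they do not.

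The other genes of the pathway were taken from lists. Of 5 further ligands (Egf, Epgn, Nrg2, Nrg3 and Nrg4) none averaged above 1 FPKM except Epgn in β-catenin ΔGSK, at 1.12 ± 0.12 FPKM (SD, n = 3) against 0.323 ± 0.17 (SD, n = 3) in FAK KO. Epgn passed the filter only through the line where it was high, so the filter fixed its direction and no test is given. Nrg3 was at 0 in all lines. The shares called over all genes in the 4 comparisons with FAK KO were 34.4% lower and 23.7% higher (β-catenin ΔGSK), 28.7% and 23.1% (KMF), 25.2% and 15.6% (FAK-WT), and 9.89% and 9.78% (FAK-R454), and the list counts are read against them. Among 7 tested genes for the sheddases and their partners, 3 were higher and 2 lower in FAK-WT over FAK KO, 3 and 2 in β-catenin ΔGSK, 3 and 1 in FAK-R454, and 4 and 2 in KMF. The 5 calls in FAK-WT became 3 without FAK KO replicate 3, a fit in which 1191 of 11843 genes were called higher and 1536 lower. Timp3, an inhibitor of Adam17, had means of 42.0 FPKM in FAK KO and 59.4 in FAK-R454, and of 87.2 in FAK-WT, 108 in KMF and 121 in β-catenin ΔGSK. Adam17 itself, the main sheddase of Areg and Tgfa, had line means between 14.03 and 15.7 FPKM, with samples from 12.8 to 16.9.

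Among 20 tested adaptors and effectors, 3 were higher and 5 lower in FAK-WT over FAK KO, 2 and 11 in β-catenin ΔGSK, 2 and 1 in FAK-R454, and 4 and 7 in KMF. The 8 calls in FAK-WT were 4 without FAK KO replicate 3, FAK-WT replicate 1 or FAK-WT replicate 2 and with chromosomes centred. They were 5 without FAK KO replicate 1, under median-ratio scaling, with no filter and with a replicate block. The calls over all genes moved too, from 1851 higher and 2986 lower in the main fit to 1191 and 1536 without FAK KO replicate 3. With chromosomes centred they were 1934 and 1695. Without FAK-WT replicate 1 they were 1464 and 2231, and 1259 and 1854 without FAK-WT replicate 2. Eps8, an actin regulator and Egfr substrate, averaged 2.90 FPKM in FAK KO and was higher in FAK-WT (9.64; log2 fold change 1.70 ± 0.10), FAK-R454 (5.82; 0.98 ± 0.12) and KMF (7.70; 1.37 ± 0.13). It was lower in β-catenin ΔGSK (1.23; -1.17 ± 0.13). The adaptor Nck1 was lower there as well, at 6.17 FPKM against 14.6. The adaptor Shc2 was at 4.61 FPKM in KMF and at 16.7 to 19.8 in the lines made from KT13 and in that clone. Among 17 tested attenuators, 2 were higher and 6 lower in FAK-WT over FAK KO, 6 and 6 in β-catenin ΔGSK, 1 and 1 in FAK-R454, and 4 and 7 in KMF. The 8 calls in FAK-WT were 5 without FAK KO replicate 3 and with chromosomes centred, fits in which fewer genes were called in all, as given above. Lrig1, which lowers the amount of the receptors, was at 5.65 FPKM in β-catenin ΔGSK against 19.4 in FAK KO (log2 fold change -1.76 ± 0.08, limma adjusted p = 4.51e-07). Sh3kbp1, an adaptor in receptor uptake, was at 6.46 FPKM in FAK-WT against 2.58 (1.26 ± 0.20, limma adjusted p = 0.00225). In FAK-WT over KMF, where 18.2% of all genes were higher and 23.5% lower, the limma calls were 1 lower among sheddases and partners, 6 higher and 4 lower among adaptors and effectors, and 4 and 6 among attenuators, and in FAK-WT over FAK-R454 (all genes 3.38% higher and 4.44% lower) they were 1 higher and 2 lower, all adaptors and effectors. Without FAK-WT replicate 2 the attenuators called over KMF were 5, and without KMF replicate 2 they were 6. The shares of all genes called in those fits are not given here. The counts with FAK-R454 also moved with single samples. Over FAK KO they were highest without FAK KO replicate 2, at 5 sheddases and partners, 6 adaptors and effectors, and 5 attenuators. The calls over all genes rose there too, to 1931 higher and 2459 lower of 11833, from 1156 and 1169 of 11818. The counts were lowest without FAK-R454 replicate 2, a fit that leaves 1 sample in that line. Against FAK-WT they were highest without FAK-WT replicate 3, at 4 in each of the first 2 lists and 8 attenuators. The share of all genes called in that fit is not given here, so these counts are not read as results about the lists. Medians of the list changes stayed between -0.24 and 0.31 for these 3 lists over the 6 comparisons.

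The genes whose levels ran most like a member's over the 14 samples were found among 12256 genes by Pearson correlation of log2 values. These are descriptions, since the samples share lines and most of the spread is between lines. Areg ran most like Kdm2a and Ereg (both 0.964) and the cytokine Il33 (0.950), and Ereg like Ttc9c (0.974), Areg and Noc3l (0.957). Thus Areg and Ereg were each among the 3 nearest genes of the other, and the other 4 lie on chromosome 19. The 3 nearest to Tgfa were Nedd4l, BC031181 and Smad2 (0.983 to 0.979), all on chromosome 18, and Csnk1g3 (0.977) and Rnmt (0.966) of the same chromosome were among the 3 nearest to Btc, with a chromosome 19 gene listed as 5-Mar (0.967) between them. Egfr ran most like Hfe (0.984), Mpdz (0.977) and Tpx2 (0.970), and Erbb2 like Itm2c (0.989), Hpcal1 (0.980) and Serpini1 (0.978). Erbb3 had Decr2 (0.950), Srxn1 (0.931) and Snrnp200 (0.926), and the nearest to Hbegf, 2610524H06Rik, Rhebl1 and Apol7a, reached 0.799, 0.781 and 0.730.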

How the data were processed

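RNA of 14 samples from 5 lines was sequenced. Per the labels and the study's methods, polyA RNA was made into libraries with the NEBNext Ultra kit and read as pairs. The submitters' processing notes list STAR 2.5, CASAVA 1.8, DESeq2 and genome build mm10, whereas the study's methods name TopHat2, so which aligner gave these values is not settled. The values are FPKM as deposited by the authors. FPKM times gene length gave whole fragments for 100% of values (within 0.01), which gave the depth; 25390558 to 35289859 fragments leave members above 1 FPKM with 178 or more fragments in each sample. The strand setting of the counting is not given in the sources used here.

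Pairs of lines were compared with limma 3.58.1 in R 4.3.3 on log2(FPKM + 0.1), with moderated variances and a mean-variance trend, two-sided, over genes with mean FPKM above 1 in at least 1 line, with Benjamini-Hochberg adjustment over all of them. The fit was tested on simulated data. Lists were described by counts and medians: other ligands (Egf, Epgn, Nrg2, Nrg3, Nrg4), sheddases and partners (Adam9, Adam10, Adam12, Adam17, Adam19, Bace1, Rhbdf1, Rhbdf2, Timp3), 21 adaptors and effectors (such as Grb2, Shc1, Gab1, Sos1) and 18 attenuators (such as Errfi1, Cbl, Lrig1). From a list, genes called at 2-fold or more in a comparison were named; Adam17 was named after its values were seen. For each member above 1 FPKM, the 3 most correlated genes were named. The members and lists were chosen with earlier results of these data known. Alternatives were the pseudocount, the filter on low values, a 2-fold minimum, median-ratio scaling, chromosome centring, voom on fragments, 1 fit over all samples, no trend, a replicate block and leaving out each sample.

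The table's coordinates were set beside GENCODE vM21 (GRCm38): 34490 of 35275 genes matched by ID, and 99.713% of those matched genes had the same chromosome and a start within 100 kb. No 2 replicates agreed within sampling noise (chi-square per degree of freedom from 3.15 to 42.5).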

Additional observations from a re-analysis of the deposited data

Results flagged for a closer look

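For 3 members the change over FAK KO differed between FAK-WT and FAK-R454 by the direct limma test of the lines. The FAK-WT minus FAK-R454 difference on the log2 scale was 0.62 for Areg, 0.44 for Ereg and -0.61 for Erbb2. Over FAK KO, Areg fell in FAK-R454 and stood at -0.14, uncalled, in FAK-WT, Ereg fell in both lines and further in FAK-R454, and Erbb2 fell in FAK-WT and stood at 0.14, uncalled, in FAK-R454. With only 2 FAK-R454 samples, leaving out either of them gives a fit with 1 sample in that line. Such a fit lost these 3 calls and nearly all calls over all genes. The differences were then 0.67 and 0.57 for Areg, 0.41 and 0.47 for Ereg, and -0.64 and -0.59 for Erbb2. The Ereg call was also lost with no filter (0.44, limma adjusted p = 0.0684) and in 1 fit over all samples (0.44, limma adjusted p = 0.083). It was lost as well without FAK-WT replicate 1 (0.39, limma adjusted p = 0.0923) and without FAK-WT replicate 2 (0.47, limma adjusted p = 0.114).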

How the results depend on the processing

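Of the alternative values of the members' log2 changes, 646 kept their direction and their side of the threshold, 21 were no longer past it, 19 came past it and 18 changed sign, 2 of which were then called. Of the counts of called members, 84 stayed within 1.5 times and 10 did not. Of those of the pathway lists, 306 did and 70 did not. Over all genes, lower calls outnumbered higher ones in each comparison with FAK KO. Under median-ratio scaling that balance turned, as in FAK-WT (2398 higher and 2043 lower, from 1851 and 2986). In β-catenin ΔGSK it went to 3447 higher and 3361 lower, from 2828 and 4100. A 2-fold minimum left 1 member in FAK-WT over FAK KO and 0 in FAK-R454 over FAK KO. It left 3 in β-catenin ΔGSK over FAK KO and 3 in KMF over FAK KO. In FAK-WT it left 0 over FAK-R454 and 2 over KMF. Among all genes it left 344 higher and 203 lower of 11841 in FAK-WT over FAK KO, and 228 and 96 of 11818 in FAK-R454. It left 611 and 833 of 11915 in β-catenin ΔGSK and 472 and 481 of 11893 in KMF. In FAK-WT it left 82 genes higher and 88 lower of 11782 over FAK-R454, and 452 and 250 of 11847 over KMF. In the pairs with 0, no tested member reached 2-fold on the log2(FPKM + 0.1) scale of the test (Ereg came nearest, at -0.99 in FAK-R454 over FAK KO), and without that minimum 4 and 5 members passed an unadjusted limma p of 0.05. In FAK-WT over FAK-R454 the members called depended on single samples. The main calls were lost without either FAK-R454 sample, fits with 1 sample in that line where hardly any gene was called. Without FAK-WT replicate 3, Btc, Tgfa and Hbegf were called in addition. In that fit 1505 of 11793 genes were called higher and 1807 lower, against 398 and 523 of 11782 in the main fit.

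The values that changed sign were uncalled and near 0 before the change. Chromosome centring gave Hbegf 0.0221 in FAK-R454, 0.30 in β-catenin ΔGSK and 0.37 in KMF over FAK KO (both called, adjusted p = 0.0321 and 0.00365), Erbb3 0.0212 in KMF over FAK KO, and Erbb3 0.0296 and Egfr 0.034 in FAK-WT over FAK-R454. Median-ratio scaling gave Hbegf 0.0336 in KMF over FAK KO, and Erbb3 0.0025 and Egfr 0.0058 in FAK-WT over FAK-R454. Leaving out 1 sample at a time gave Hbegf -0.25 to 0.0147 in FAK-R454 over FAK KO and -0.048 to 0.0261 in KMF over FAK KO, Erbb3 -0.10 to 0.0016 in KMF over FAK KO, and Erbb3 -0.13 to 0.0543 and Egfr -0.0862 to 0.0016 in FAK-WT over FAK-R454.

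Samples with the same number did not meet the rule for pairs, since their deviations correlated above 0.1 for every number in no comparison. In β-catenin ΔGSK with FAK KO, the nearest to it, the correlations were 0.481, 0.321 and 0.0972. Samples correlated best with their own number in 5 of 6 cases in β-catenin ΔGSK with FAK KO but in 0 of 6 in FAK-WT with FAK KO. A replicate block gave 5 called members in FAK-WT over FAK-R454 (Btc and Hbegf gained) and 7 in β-catenin ΔGSK over FAK KO (Erbb3 gained). Over all genes it gave 1567 higher and 1826 lower of 11782 in the first, and 3330 and 4823 of 11915 in the second. It gave 3 in FAK-R454 over FAK KO (Tgfa lost), an Egfr difference of 0.0016 in FAK-WT over FAK-R454, and no other change of call. FAK-R454 has no replicate 3, so in its comparisons the block also set aside replicate 3 of the other line. The Btc, Hbegf, Egfr and Tgfa differences there equalled those without that sample, so these moves cannot be put down to the block alone. Depth limits Erbb4 and Nrg1, with at most 28 and 22 fragments in a sample, so these genes were tested only with a lower filter or none, where limma called Erbb4 in β-catenin ΔGSK and Nrg1 in FAK-R454, both over FAK KO and both with no filter. FAK-R454 had 2 samples, so fits without 1 of them assume that the lone sample varies like the other line.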
